A study of Mus musculus with 36 samples.

Results

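Chromatin regions were examined that were listed as open in mouse mesenchymal stem cells (MSCs) of adipose tissue (A-MSCs) and in no other of the 4 tissues profiled. The members were chosen by their own ATAC-seq values. Lines of the A-MSC peak list with the same chromosome, start and end were joined into regions, regions with a −log10 q above 7 at any summit were kept, and those overlapped by 1 bp or more by any line of the other 3 lists, whatever its q, were removed. This left 2806 regions, which is 4.69% of the 59873 A-MSC regions with a −log10 q above 7, of 98008 A-MSC regions in all and of 374191 regions over the 4 lists. The other lists came from MSCs of femoral bone marrow (fBM-MSCs), vertebral bone marrow (vBM-MSCs) and lung (P-MSCs). All cells were from untreated C57BL6/J mice of 8 weeks. They were seeded on dishes coated with collagen I, in MesenCult medium with MesenPure and a Rock inhibitor, and were kept for no more than 3 passages. Marrow cells were released by crushing the bone, adipose and lung cells by collagenase, and the cells that grew on the dish were used. By flow cytometry the study found those of each tissue positive for MSC surface markers and negative for non-MSC markers. Each tissue was taken from the same 3 animals per the study's methods, but no label ties a library to an animal, so p-values measure the spread between these libraries. The ATAC-seq peak list of a tissue pooled 3 replicates, so no region value has a replicate error. RNA-seq comprised 3 libraries each of A-MSCs, fBM-MSCs and P-MSCs and 2 of vBM-MSCs. The third vBM-MSC library was not analysed here.

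ATAC-seq inserts sequencing adapters with the transposase Tn5 where DNA is free of nucleosomes, so its peaks mark promoters and enhancers that proteins hold open. Enhancers are usually more specific to a cell type than promoters, they can lie far from the gene they act on, and which of them are open depends on the transcription factors a cell makes. GATA factors are zinc finger proteins that bind the core letters GATA, AP-1 is a dimer of FOS and JUN family proteins, TEAD factors bind DNA for the cofactors YAP and TAZ, and RUNX factors act in bone and blood. Adipose depots of the abdomen are covered by mesothelium, a sheet of cells whose known genes include Wt1.

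The windows of 201 bp centred on the highest summit are shown for 8 of the regions, as the + strand of GRCm38 (mm10) 5′ to 3′. The first 5 were intronic or intergenic members with the most reads among those that hold the GATA word AGATAA, and the third to the fifth were each chosen from 4 regions tied at 47 reads. The following pair are members of Rbpms, a gene with higher RNA in A-MSCs, and the last lies in an intron of Wt1os beside Wt1. Capitals mark the word AGATAA, or TTATCT where it lies on the other strand.
Slc6a17 intron, chr3:107490164-107490364: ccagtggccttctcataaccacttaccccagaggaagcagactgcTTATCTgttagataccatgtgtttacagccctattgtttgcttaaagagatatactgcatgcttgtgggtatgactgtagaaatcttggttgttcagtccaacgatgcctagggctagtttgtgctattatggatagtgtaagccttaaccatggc
upstream of 1700028M03Rik, chr3:83581492-83581692: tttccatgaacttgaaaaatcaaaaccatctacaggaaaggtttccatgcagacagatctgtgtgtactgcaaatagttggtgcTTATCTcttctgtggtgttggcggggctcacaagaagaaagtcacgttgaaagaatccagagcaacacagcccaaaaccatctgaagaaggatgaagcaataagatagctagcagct
Lsm11 intron, chr11:45939043-45939243: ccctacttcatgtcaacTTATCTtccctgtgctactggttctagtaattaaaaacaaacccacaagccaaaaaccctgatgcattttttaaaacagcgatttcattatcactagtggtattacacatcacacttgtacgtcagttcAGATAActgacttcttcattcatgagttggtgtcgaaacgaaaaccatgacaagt
Cacna1d intron, chr14:30099362-30099562: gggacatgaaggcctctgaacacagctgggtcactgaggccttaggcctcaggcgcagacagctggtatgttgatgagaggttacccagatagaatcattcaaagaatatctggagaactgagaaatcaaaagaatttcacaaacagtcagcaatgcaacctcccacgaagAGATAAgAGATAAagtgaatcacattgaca
downstream of Tiam1, chr16:89695957-89696157: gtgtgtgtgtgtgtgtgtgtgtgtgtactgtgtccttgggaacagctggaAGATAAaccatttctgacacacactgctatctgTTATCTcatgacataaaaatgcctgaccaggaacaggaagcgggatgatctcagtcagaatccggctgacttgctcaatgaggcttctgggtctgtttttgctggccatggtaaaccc
Rbpms intron, chr8:33883702-33883902: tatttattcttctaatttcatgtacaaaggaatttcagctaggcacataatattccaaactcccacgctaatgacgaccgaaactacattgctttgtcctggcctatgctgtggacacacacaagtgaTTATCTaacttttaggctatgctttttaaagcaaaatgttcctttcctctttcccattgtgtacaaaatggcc
upstream of Rbpms, chr8:33992991-33993191: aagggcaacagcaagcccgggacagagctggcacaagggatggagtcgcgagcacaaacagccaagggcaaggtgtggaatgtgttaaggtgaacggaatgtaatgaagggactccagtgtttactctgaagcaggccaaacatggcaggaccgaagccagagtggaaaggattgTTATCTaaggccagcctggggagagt
Wt1os intron, chr2:105113118-105113318: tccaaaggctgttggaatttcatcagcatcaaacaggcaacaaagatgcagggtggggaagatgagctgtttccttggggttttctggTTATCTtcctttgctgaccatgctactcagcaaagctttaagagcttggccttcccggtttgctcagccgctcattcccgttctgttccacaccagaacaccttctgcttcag

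The word lay 52 bp before the summit in the Slc6a17 intron and 13 bp before it upstream of 1700028M03Rik. The windows with 47 reads held 2 words each, 80 bp before and 49 bp after the summit in the Lsm11 intron, 74 and 81 bp after it in the Cacna1d intron and 47 and 14 bp before it downstream of Tiam1. The Rbpms windows held the word 31 bp and 78 bp after the summit, and the Wt1os window 9 bp before it. The windows upstream of Rbpms and in Wt1os also held the TEAD word GGAATG on either strand, and that in Cacna1d the AP-1 word TGANTCA.

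RNA-seq libraries held 19569650 to 40517739 expected counts. Of 12509 genes tested with edgeR's quasi-likelihood test, 1997 (16%) were higher and 1740 (13.9%) lower in A-MSCs than in the mean of the other tissues at a Benjamini-Hochberg adjusted p under 0.05. Against each other tissue in turn, 306 genes (2.45%) were higher and 332 (2.65%) lower in all 3 comparisons. The labelled cell type was checked against markers. The MSC surface genes Itgb1 (465.7 to 522.1 TPM), Cd44 (366.7 to 404.7) and Ly6a (114 to 144.6) were present in all 3 A-MSC libraries, though of the 9 genes of this list 1 was higher and 3, Itgb1 and Ly6a among them, were lower than in the mean of the others, and of the genes MSCs should lack Ptprc was at most 0.08 TPM, Cd34 0.91 to 1.18 and Pecam1 3.84, 0.34 and 0.28. Markers of other cell types were also present. Of 6 mesothelial markers, 5 were higher in A-MSCs, with a summed level of 105.3 to 153.6 TPM against 2.32 to 14.65 in fBM-MSCs, 18.89 to 23.87 in vBM-MSCs and 76.18 to 98.82 in P-MSCs. All 5 smooth muscle markers were higher, summing to 12319 to 12904 TPM against at most 7709 in any other library. Of 4 tested endothelial markers 2 were higher, with sums of 3.4 to 55.3 TPM in A-MSCs and at most 8.29 elsewhere, set by Emcn at 49.5, 5.51 and 2.32. Of 5 skeletal muscle markers Des and Acta1 were higher, with sums of 1035 to 1273 TPM against at most 20.54 for fBM-MSCs, 496.1 for vBM-MSCs and 784.7 for P-MSCs, while Myod1, Pax7 and Myf5 were at 0 in all libraries. Of 3 tested epithelial markers 2 were higher, while Epcam was at most 0.41 TPM and Cdh1 at 0 in 10 of 11 libraries. Of 4 tested macrophage markers 1 was higher, and their sums in A-MSCs (17.81 to 27.05) were under those of fBM-MSCs (40.52 to 52.11), overlapped those of vBM-MSCs (24.41 to 45.2) and were over those of P-MSCs (15 to 16.91). In bulk samples, fewer cells of a type and less RNA per cell cannot be told apart. The part of these cells in the choice of regions was not tested.

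The members were mostly weak peaks. Fold enrichment over the genome-wide background had a median of 6.25 and ranged from 5.52 to 28.7. All fold values of the 4 lists were whole multiples of 0.3679, so a summit's reads could be read off the fold, and the worth of 1 read was the same in the 4 lists. The median member held 16 reads at its summit (95% Poisson interval 9.15 to 26.0), and the range was 14 to 77. Of the 2806 members, 726 held 14 reads, 2182 (77.8%) held 14 to 19, 106 held 30 or more and 8 held 50 or more. The q threshold fell between 14 and 13 reads. The 726 members just inside had a −log10 q of 7.24 and a fold of 5.52, and 994 A-MSC regions without an overlap just outside had 6.33 and 5.15. The lowest line of any other list held 7 reads, so a place absent from a list may still have held 6 (interval 2.20 to 13.1). No A-MSC region above the threshold and no region of 1 other list alone was under 200 bp wide. A narrower place with more reads may therefore also be absent from a list. An interval wholly above that of 6 reads needed 22 reads, which 414 members (14.7%) had. These values chose the members and are given as a description. Intervals cover counting error only.

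Sharing rose with read number among all A-MSC regions above the threshold. Of regions with 14 or 15 reads 14.5% were in no other list, of those with 20 to 29 reads 3.23%, and of those with 50 to 99 reads 0.0939%. None of the 1323 regions with 100 or more reads was in the A-MSC list alone. Of all 59873, 5951 were overlapped in 1 other list, 10020 in 2 and 41096 in all 3. The same rule with the lists exchanged kept 5032 regions for fBM-MSCs, 2325 for vBM-MSCs and 2216 for P-MSCs.

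**Figure D1:**
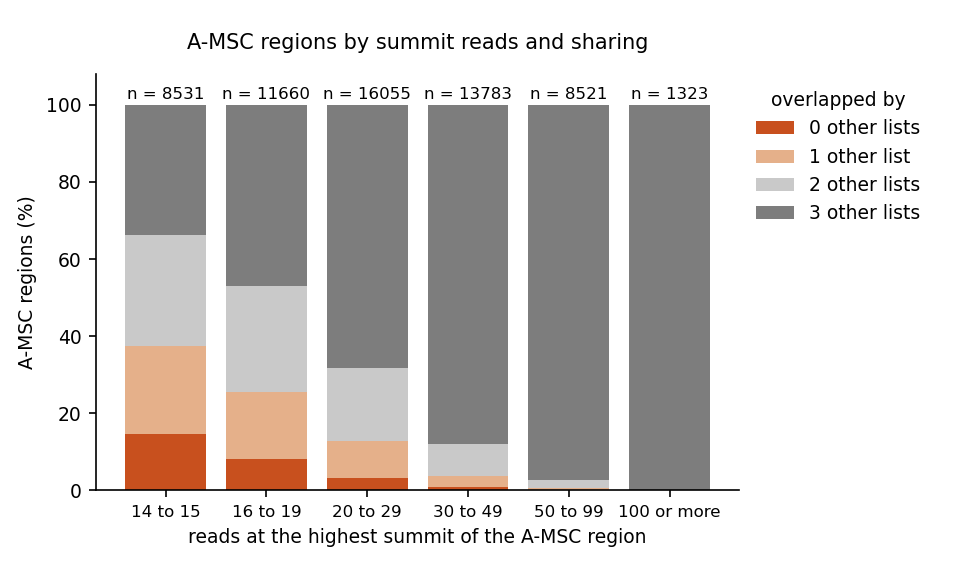
Share of A-MSC regions (%) with a −log10 q above 7 by reads at the highest summit; colours give how many of the other 3 lists overlap the region, and n is the number of regions. The share in no other list falls from 14.5% at 14 or 15 reads to 0 at 100 or more.

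Most members lay away from promoters. The highest summit was within 1 kb of a start site in 85 members (3.03%, exact 95% interval 2.43 to 3.73), in an exon in 104 (3.71%), in an intron in 1418 (50.5%) and between genes in 1199 (42.7%). Promoters made up 28.6% of A-MSC regions in all 4 lists. The gap was smaller at 14 to 19 reads, where the shares were 3.39% of members, 5.91% of A-MSC regions in 1 or 2 other lists and 17.7% of those in all 4. At 20 to 29 reads these shares were 1.93%, 2.8% and 22.25%. At 30 to 49 reads they were 0%, 3.015% and 30%. Promoter shares of the regions of 1 other list alone were 1.81% for fBM-MSCs, 1.81% for vBM-MSCs and 2.48% for P-MSCs. The median member was 28903 bp from the nearest start site, against 45428 bp, 40182 bp and 38664 bp for those lists. The nearest line of any other list was at a median of 3396 bp, and 355 members had one within 500 bp. Repeats covered 50% or more of the window in 154 members (5.49%), against 16.6% of windows 1 kb to either side. Members per A-MSC region ran from 3.62% on chromosome 7 to 5.66% on chromosome 16.

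The highest members lay on several chromosomes. The first, with 77 reads and a fold of 28.7, lay in an intron of Slc6a17, which codes for a vesicle transporter of neutral amino acids, at chr3:107489890-107490619. The second, with 67 reads, spanned the start sites of Wt1 and Wt1os at chr2:105126187-105127867. Wt1 codes for a zinc finger transcription factor of kidney, gonad and mesothelium, and Wt1os is a non-coding transcript that runs away from it. The fourth, with 56 reads, lay in an intron of Pde1a, a calmodulin-dependent phosphodiesterase, at chr2:79945847-79946723. The third, with 62 reads, is the region upstream of 1700028M03Rik shown above, and the fifth and the sixth, with 52 reads each, lay in exons of Frs2, an adaptor of FGF receptors, and Tspan14, a tetraspanin.

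Other members lay side by side. Members with edges no more than 50 kb apart formed 292 chains of 2 or more, which held 658 members (23.4%), and 2148 members stood alone. A next member within 50 kb was found for 13.04% of members, 14.9% of fBM-MSC-only, 9.42% of vBM-MSC-only and 9.84% of P-MSC-only regions. The longest chain, of 8 members, ran along Fbln2, the gene of the matrix protein fibulin 2, at chr6:91214858-91292735, and its highest member had a fold of 9.20. A chain of 6 lay over Wt1os and Wt1 at chr2:105095520-105168546, with 18, 21, 67, 21, 17 and 26 reads in order of position. Chains of 5 lay over the paired collagen IV genes Col4a1 and Col4a2, from Zyx to Epha1, over and beyond Myh9, and at Anxa1.

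The GATA word was more frequent in the members than in the regions of any other tissue alone. Of the 2806 windows, 663 (23.6%, exact interval 22.1 to 25.2) held AGATAA on either strand. The share was 6.68% in fBM-MSC-only, 8.39% in vBM-MSC-only and 9.97% in P-MSC-only regions, 6.73% in A-MSC regions of all 4 lists, and 11.7% in windows 1 kb to either side of the members' summits. The interval of the members lay above that of each of these classes. With any of 4 words, AGATAA or TGATAA or AGATAG or TGATAG, shares were 48.5% of members against 20.6%, 22.5% and 29.6%. Letters were not used to choose the regions. The study had already reported from the same ATAC-seq data that GATA motifs were accessible specifically in A-MSCs, so this word was looked for with that result known.

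Shares of the GATA word were also compared at matched read numbers. At 14 to 19 reads the word was in 21.5% of members (19.8 to 23.3), in 12.3% of A-MSC regions in 1 or 2 other lists and in 6.64% of those in all 4. At 20 to 29 reads these shares were 30.9%, 15.05% and 7.06%. At 30 to 49 reads the members' share of 29.6% (20.8 to 39.7) overlapped the 20.7% (18.7 to 22.8) of regions in 1 or 2 other lists. Among members the share was 20.1% at 14 or 15 reads and 31.1% at 30 or more, and it ran from 5.34% to 10.8% over all such bins of the other tissues' regions. By place, 23.5% of promoter members, 17.3% of exonic (10.6 to 26.0), 22.4% of intronic and 25.7% of intergenic members held the word, and the other classes were not split by place.

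**Figure D2:**
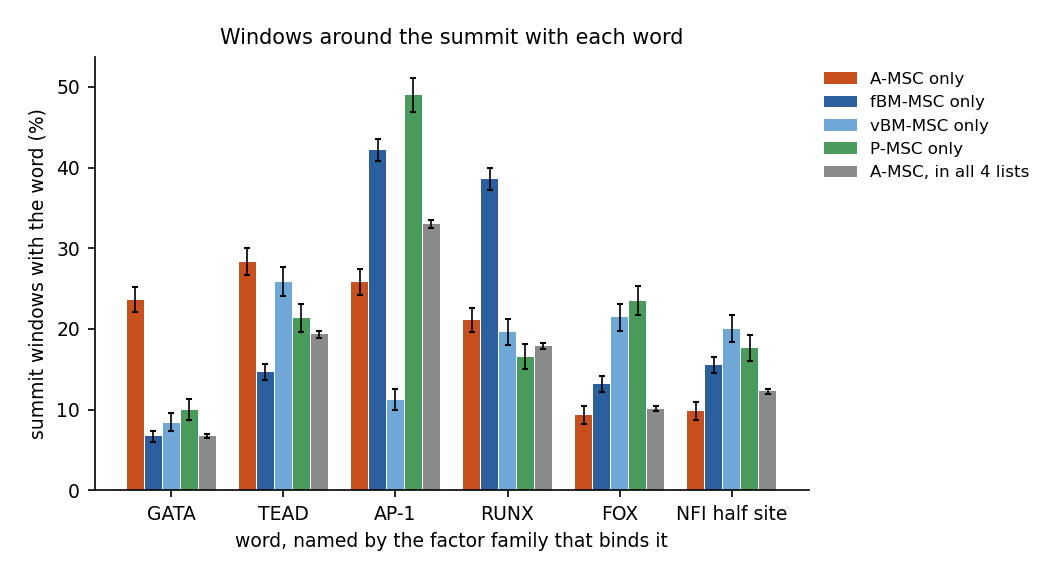
Share (%) of 201 bp summit windows that hold each word, for the regions of 1 list alone and for A-MSC regions in all 4 lists; bars start at 0 and error bars are exact binomial 95% intervals. The GATA word is in 23.6% of A-MSC-only windows and in at most 9.97% of the other classes.

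The word was also most frequent at the summit itself. Of 733 GATA words in the members' windows, 420 (57.3%) lay within 50 bp of the summit, with a median distance of 44 bp. These windows reach only 100 bp to each side, so evenly spread words would give values not far from these. Density was therefore also counted out to 500 bp. Density was 1.52 words per kb in the 50 bp after the summit and 0.727 in the bin 451 to 500 bp before it. In fBM-MSC-only regions it ran the other way, with 0.262 after the summit and 0.636 far before it, and in vBM-MSC-only and P-MSC-only regions the values after the summit were 0.456 and 0.550. A window with 2 or more such words was found for 2.39% of members and for 0.338% to 0.587% of the other classes.

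**Figure D3:**
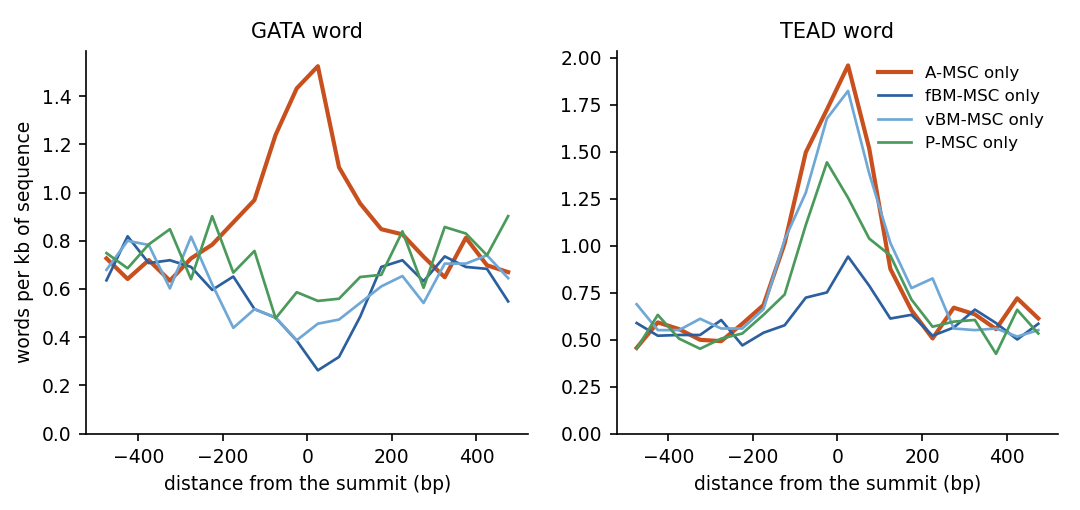
Words per kb in bins of 50 bp by distance from the summit (bp), for the GATA word (left) and the TEAD word (right), in the regions of 1 list alone. In A-MSC-only regions the GATA line rises to 1.52 per kb at the summit, while it is at most 0.587 within 50 bp of the summit in the other classes; the TEAD line rises at the summit in each class.

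Words of 6 letters, 2080 in all, were also counted without naming factors. Among the 1380 words found in 5% or more of windows of at least 1 class, the 5 with the largest ratio of the members' share to the mean of the other 3 classes were CTTATC first, then AGATAA, then GATAAC, then GAGATA and TGATAA, and all 5 hold GATA or its reverse. CTTATC was in 17.8% of members against a mean of 4.14%, a ratio of 4.31. At the other end stood TAAACA, the FOX word TGTTTA on the other strand, in 9.27% of members against a mean of 19.4%. Against the windows 1 kb to either side the order was another, with CATTCC, the TEAD word on the other strand, first at 2.496 times, GAGTCA at 2.495 and CTTATC at 2.494.

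Other words differed between the classes in their own ways. The TEAD word GGAATG was in 28.3% of members (26.7 to 30.0), above fBM-MSC-only (14.7%) and P-MSC-only (21.3%) regions, while its interval overlapped that of vBM-MSC-only regions (25.8%, 24.1 to 27.7). The AP-1 word TGANTCA was in 25.8% of members, between vBM-MSC-only regions at 11.1% and those of fBM-MSCs and P-MSCs at 42.2% and 49.05%. The RUNX word TGTGGT was in 21.1%, close to 19.6% in vBM-MSC-only regions and under the 38.6% of fBM-MSC-only regions. The NFI word TTGGCA was rarer in members (9.77%) than in the regions of each other tissue alone (15.5% to 20%) and stood at 12.3% in A-MSC regions of all 4 lists and 10.3% in the windows 1 kb to either side (9.48 to 11.1), whose interval overlapped that of the members. Rare words also had intervals above those of the other 3 classes of 1 list: EBF's, an inverted repeat of TCCC with a spacer, was in 2.07% of members (1.57 to 2.66) against at most 0.731%, and that of EGR and WT1 in 1.07% (0.722 to 1.52) against at most 0.398%, though in 1.18% of A-MSC regions of all 4 lists. Against the windows 1 kb to either side, the members' share was 4.30 times as high for EBF, 3.76 for AP-1, 3.53 for EGR and WT1, 2.50 for TEAD and 2.02 for GATA. GATA and AP-1 words stood together in 206 windows, and 31.1% of windows with a GATA word held an AP-1 word against 24.2% of those without. The same shares were 28.7% and 28.2% for a TEAD word and 23.5% and 20.35% for a RUNX word. A TEAD word was in 22.4% of windows with an AP-1 word against 30.4% of those without. A match of letters is a description and does not show that a factor was bound.

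Genes near the members were more often higher in A-MSCs. Each member was given to the gene with the nearest RefSeq start site if that lay within 100 kb, which placed 2287 members (81.5%) at 1962 genes. Of these genes 1828 were in the RNA-seq files and 1173 passed the filter on low counts. Another 655 genes did not pass it, 157 members had a gene that the files did not list, and 519 members lay farther off. Of all 12064 tested genes with a start site, 15.9% were higher and 14% lower. The higher share was 15.1% of genes with no member, 21.3% with 1 (215 of 1010), 33.1% with 2 (42 of 127) and 36.1% with 3 or more (13 of 36, 20.8 to 53.8). The lower share was 14.1%, 12.7%, 11.8% and 5.56% over the same groups. The last was 2 of 36 genes (0.68 to 18.7), and each interval of genes with a member held the 14% of all tested genes. This last share became 11.1% without vBM-MSC replicate 2 and with DESeq2, and 11.4% (4 of 35) among genes with 3 CPM in 3 or more libraries. With regions chosen against only those other lines that had a −log10 q above 7, it was 13.5%, close to the 14% of all tested genes. Median log2 fold changes were −0.02, 0.07, 0.26 and 0.46. Since a gene passes the filter through the tissue where it is high, these counts describe the tested genes only, and genes are not independent replicates.

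The higher share was not particular to the members in its rise. With A-MSC regions in 1 or 2 other lists it was 13.9% of genes with none and 27.3% (24.4 to 30.4) with 3 or more. The latter interval overlapped that of genes with 3 or more members. With regions of 1 other list alone the order turned. Genes with 2 or more fBM-MSC-only, vBM-MSC-only or P-MSC-only regions were higher in A-MSCs in 7.97%, 12.7% and 10% of cases and lower in 25.1%, 24.5% and 32%. Seen from the genes, 66 of the 297 (2.46% of those tested) that were higher in A-MSCs than in each other tissue had a member (22.2%, 17.6 to 27.4), against 9.72% of all tested genes and 9.35% of the 321 (2.66%) that were lower than in each. The same 297 genes had an fBM-MSC-only region in 12.1% of cases, against 12.8% of all tested genes. Higher genes were most frequent for members within 1 kb (28.9%, 13 of 45) and from 1 to 10 kb (29.2%) of the start site, and 19.6% from 50 to 100 kb. Genes whose member held the GATA word were higher in 20.9% of cases and those whose member held none in 24.0%, with overlapping intervals.

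**Figure D4:**
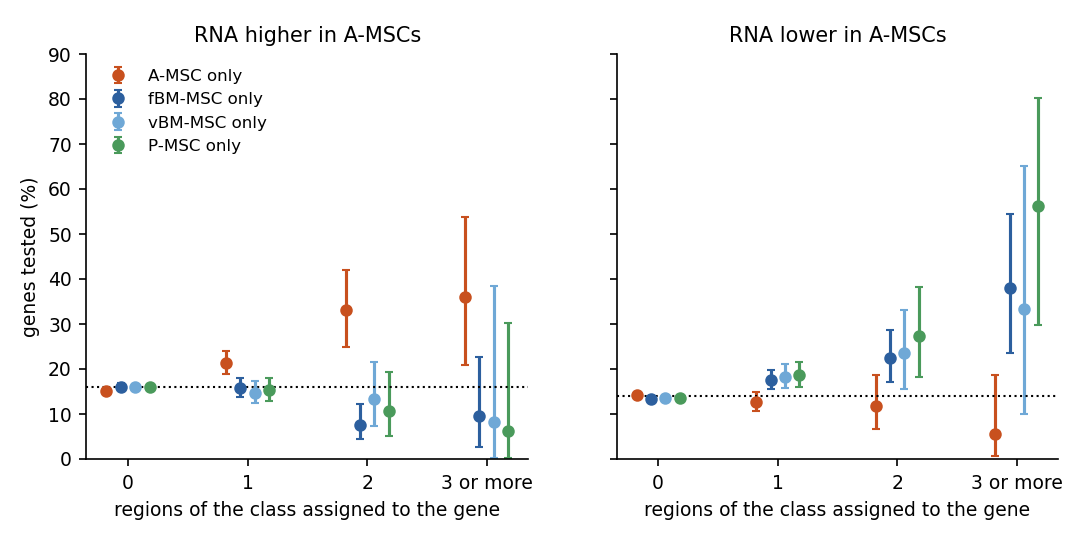
Share (%) of tested genes called higher (left) or lower (right) in A-MSCs than in the mean of the other tissues, by how many regions of 1 list alone were given to the gene; error bars are exact binomial 95% intervals and dotted lines the shares of all tested genes, 15.9% and 14%. A-MSC-only points rise from 15.1% to 36.1% on the left and go from 14.1% to 5.56% on the right, where each interval of genes with a member holds the dotted line.

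The transcription factor genes Wt1 and Tcf21 had members and were higher in A-MSCs than in each other tissue. Wt1 had 3 members beside the shared start site region. Its TPM was 10.59, 14.94 and 11.72 in the A-MSC libraries and 0 in all 8 others. With 2710 counts in A-MSCs and none elsewhere, it was at least 733-fold higher than in fBM-MSCs, 545-fold than in vBM-MSCs and 877-fold than in P-MSCs, against a floor of 3 counts over the group. Wt1os was also found in A-MSCs alone, at 0.11, 0.21 and 0.19 TPM, which was too low to be tested. Tcf21, a bHLH factor of mesoderm around organs, had 2 intergenic members within 100 kb, 17030 bp and 67515 bp before its start site, with 17 and 32 reads. Its TPM was 4.2, 4.85 and 3.82 in A-MSCs, 0 in all 5 marrow libraries and 1.44, 0.24 and 0.9 in P-MSCs. The A-MSC libraries lay above all others, at least 84.9-fold above fBM-MSCs and 63.2-fold above vBM-MSCs.

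Genes with 3 members and higher RNA than in each other tissue also included Adgrd1, Rhoj and Bmper. Adgrd1, an adhesion G protein-coupled receptor, had 3 members in its introns. Its TPM was 22.48, 17.06 and 35.46 in A-MSCs, 1.24, 1.19 and 1.65 in fBM-MSCs, 0.35 and 0.46 in vBM-MSCs and 0.45, 0.29 and 0.21 in P-MSCs. A-MSCs lay far above, with a log2 fold change of 5.60 against the mean of the others (SE 0.24, edgeR adjusted p = 1.08e-07). Rhoj, a small GTPase of the CDC42 family known from vessels and adipogenesis, had 3 members in its introns. It stood at 167.9, 164.4 and 182.4 TPM in A-MSCs, 41.23, 28.29 and 17.78 in fBM-MSCs, 97.51 and 74.04 in vBM-MSCs and 32.91, 32.45 and 33.28 in P-MSCs. No library of another tissue reached the A-MSCs, and the log2 fold change was 2.10 (SE 0.19, edgeR adjusted p = 2.58e-05). Bmper, which codes for a secreted BMP-binding protein, had 1 member before its start and 2 in introns. Its TPM was 79.04, 67.44 and 66.86 in A-MSCs, 12.51, 10.36 and 7.16 in fBM-MSCs, 14.22 and 17.58 in vBM-MSCs and 35.02, 40.78 and 39.8 in P-MSCs. P-MSCs were the nearest tissue and did not overlap A-MSCs. The log2 fold change was 2.09 against the mean of the others (SE 0.13, edgeR adjusted p = 2.66e-06) and 1.08 against P-MSCs (SE 0.17, edgeR adjusted p = 0.00101).

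Rbpms, an RNA-binding protein gene of smooth and heart muscle, had 4 members, 3 in introns and 1 before its start site, and 2 of them held the GATA word. The members had 14 to 16 reads and were thus among the weakest. Its TPM was 79.67, 83.55 and 86.6 in A-MSCs, 9.24, 7.77 and 11.13 in fBM-MSCs, 11.77 and 7.55 in vBM-MSCs and 10.07, 9.73 and 11.43 in P-MSCs. The other 3 tissues overlapped one another and all lay under A-MSCs (log2 fold change 3.16, SE 0.17, edgeR adjusted p = 8.35e-07). Pde1a, with a pair of neighbouring members in an intron, stood at 5.17, 8.8 and 4.97 TPM in A-MSCs, 0.16, 1.22 and 0.35 in fBM-MSCs, 1.7 and 2.24 in vBM-MSCs and 2.8, 2.87 and 2.42 in P-MSCs. Its groups did not overlap either, and the log2 fold change was 2.18 (SE 0.34, edgeR adjusted p = 8.16e-04). In all, 16 of the 163 tested genes with 2 or more members (9.82%) were higher than in each other tissue, against 2.46% of all tested genes. Beside those named they included Itga9, Ubash3b, Soat1, Lbh, Gata3, Ampd3, Palld, Slc35b4 and Tsc22d2, and their log2 fold changes against the mean ran down to 0.57 for Tsc22d2.

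Other genes with 3 or more members were higher against the mean but not against each tissue. Adam12, a metalloprotease gene, was at 7.24 TPM in A-MSCs and 10.2 in P-MSCs on average, against 0.73 and 2.35 in the marrow cells (log2 fold change 1.59). A-MSC libraries of Tns1 and Jade1 lay above all others, and those of Bmpr1b and Ap1s1 overlapped them. Tns1, Jade1, Bmpr1b, Rbms3, Anxa1 and Ap1s1 were higher by 1.51 to 0.29 on the log2 scale. The call of Bmpr1b was lost without A-MSC replicate 2 (adjusted p = 0.068, edgeR), that of Anxa1 without A-MSC replicate 1 or 3 and that of Ap1s1 in 9 of 16 other settings.

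Members also lay at genes that were lower or were not called against the mean. Pqlc3, a PQ loop repeat protein gene, had 3 members and was at 15.83, 15.52 and 16.94 TPM in A-MSCs, 69.92, 95.82 and 118 in fBM-MSCs, 75.91 and 77.49 in vBM-MSCs and 19.23, 12.19 and 17.47 in P-MSCs. It was lower against the mean (log2 fold change −1.48, SE 0.18, edgeR adjusted p = 1.49e-04), with A-MSCs among the P-MSC values. Myh9, non-muscle myosin, was lower at −0.67 (SE 0.16, edgeR adjusted p = 0.00834). Fbln2, with 8 members the most of any gene, was at 270.1, 370.6 and 341 TPM in A-MSCs, 390.7, 382.1 and 59.49 in fBM-MSCs, 205.2 and 416.7 in vBM-MSCs and 719.8, 902.4 and 836.8 in P-MSCs. It was highest in P-MSCs, and A-MSCs lay within the spread of the marrow cells (log2 fold change −0.20, SE 0.42, edgeR adjusted p = 0.76). Fam110c, Arhgap29, Tnc, Mbd2, Col4a1, Col4a2 and Slc6a17 did not pass the test against the mean. Of these Fam110c was higher than in fBM-MSCs (log2 fold change 0.89) and lower than in vBM-MSCs (−1.17) and P-MSCs (−1.32), and Arhgap29, Tnc and Col4a2 were higher than in fBM-MSCs (1.52, 0.89 and 0.73), each at an edgeR adjusted p under 0.05. Npas3 and Filip1, with 4 members each, were at most 0.21 TPM in any library and were not tested.

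**Figure D5:**
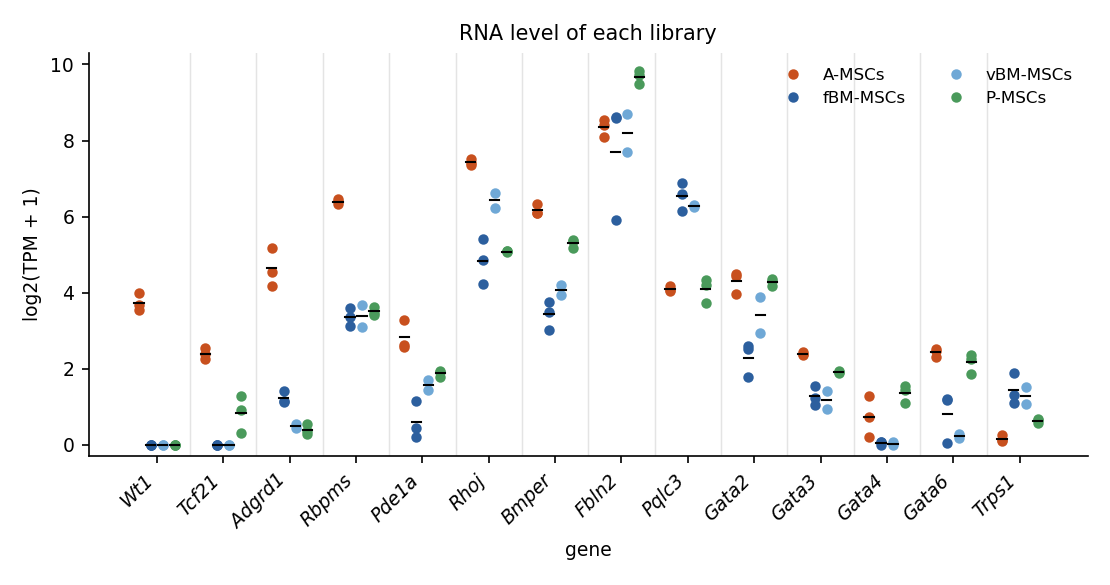
RNA level as log2(TPM + 1) of each of the 11 libraries for genes with the most or strongest members and for GATA factor genes; points are libraries and black lines group means on this scale. Wt1 is at 0 in the 8 libraries outside A-MSCs, Rbpms lies above all others in A-MSCs, and Fbln2 is highest in P-MSCs.

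The 85 promoter members gave 45 tested genes, of which 13 (28.9%) were higher, 4 (8.89%) lower and 28 not called. Of all tested genes 15.9% were higher and 14% lower. The genes named here were chosen after their values were seen. Asic3, an acid-sensing ion channel, was at 61.8 ± 10.1 TPM (SD, n = 3) in A-MSCs against means of 1.07, 0.16 and 0.117 in fBM-MSCs, vBM-MSCs and P-MSCs (log2 fold change 8.04, SE 0.70, edgeR adjusted p = 1.60e-05). Folr1, a folate receptor, was at 23.9 ± 4.88 TPM (SD, n = 3) against 0.917, 0.45 and 1.42. Cntf, a neurotrophic cytokine, and Gsta3, a glutathione transferase, were higher by 3.62 and 4.07 on the log2 scale, the latter by 6.42 without vBM-MSC replicate 2. Actg2, smooth muscle gamma actin, was at 1874 ± 37.3 TPM (SD, n = 3) against 72.1, 1003 and 390.6. Lpl, the lipoprotein lipase of adipose tissue, was higher by 2.71 (SE 0.68, edgeR adjusted p = 0.0118), a call lost without A-MSC replicate 3 (edgeR adjusted p = 0.0503) and a value of 4.90 without vBM-MSC replicate 2. Lower genes included Snai2, a repressor of epithelial genes, at 11.2 against 30.5, 34.0 and 19.4 TPM, and Mllt3, a gene of the super elongation complex, at 0.97 against 5.56, 10.4 and 2.48.

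The GATA list held 7 factor genes and the cofactor genes Zfpm1 and Zfpm2. Of the factor genes Gata3, Gata4 and Trps1 had 4 members between them, Zfpm1 had 1, and 9.72% of all tested genes had a member. Of 7 genes tested, Gata2, Gata3, Gata4 and Gata6 were higher and Trps1, an atypical GATA repressor, was lower, against 16% and 13.9% of all tested genes. Gata2, known from blood stem cells and preadipocytes, was at 14.75, 20.62 and 21.64 TPM in A-MSCs, 4.77, 5.01 and 2.42 in fBM-MSCs, 6.74 and 13.92 in vBM-MSCs and 19.44, 18.88 and 16.99 in P-MSCs. A-MSCs lay above both marrow groups and overlapped P-MSCs (log2 fold change 1.19, SE 0.22, edgeR adjusted p = 0.00237). Gata3, also a preadipocyte factor, had 2 members and was at 4.13, 4.39 and 4.2 TPM in A-MSCs, 1.07, 1.94 and 1.36 in fBM-MSCs, 0.94 and 1.65 in vBM-MSCs and 2.8, 2.85 and 2.7 in P-MSCs. It was the one GATA gene of the list above each other tissue (log2 fold change 1.42, SE 0.21, edgeR adjusted p = 6.44e-04).

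Gata6, a factor of heart and mesothelium, had no member and was at 3.94, 4.51 and 4.78 TPM in A-MSCs, 1.27, 1.29 and 0.04 in fBM-MSCs, 0.13 and 0.23 in vBM-MSCs and 2.67, 3.81 and 4.19 in P-MSCs. P-MSCs again overlapped A-MSCs (log2 fold change 2.55, SE 0.56, edgeR adjusted p = 0.00588). Gata4 was low in every library, with 0.16, 1.43 and 0.67 TPM in A-MSCs, at most 0.05 in marrow and 1.71, 1.91 and 1.14 in P-MSCs. Its log2 fold change of 2.87 (SE 0.76, edgeR adjusted p = 0.0149) was lost as a call without A-MSC replicate 2 (adjusted p = 0.108) and was 4.21 without vBM-MSC replicate 2. Trps1 had 1 member and stood at 0.08, 0.1 and 0.19 TPM in A-MSCs, 1.49, 1.15 and 2.72 in fBM-MSCs, 1.11 and 1.86 in vBM-MSCs and 0.58, 0.48 and 0.61 in P-MSCs. It was lower than in each other tissue (log2 fold change −3.02, SE 0.39, edgeR adjusted p = 2.60e-04). Gata1 and Gata5 were at most 0.18 TPM and were not tested.

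Genes of factors for the other words were read against the 16% higher and 13.9% lower of all tested genes. Called or not, 3 of 8 TEAD and YAP genes, 3 of 16 AP-1, 2 of 4 NFI and 1 of 4 EBF genes had a member. So did 1 of 10 bHLH genes, 1 of 5 EGR and WT1 genes and no C/EBP gene, where 9.72% of all tested genes had one. Of 8 TEAD and YAP genes, Tead1, with 2 members, and Vgll3, with 1, were higher by 0.63 and 0.61 on the log2 scale and none was lower; the call of Vgll3 was lost without A-MSC replicate 1 or 3. Of 13 tested AP-1 genes 1 was higher and 2 (Jun and Jund) lower. The higher gene, Fosb, had 1 member and lost its call without A-MSC replicate 2 or 3. Of 4 RUNX genes, Runx1 was higher and Runx3 lower, and none had a member. Of 4 NFI genes, whose word was rarer in members, Nfib and Nfic were lower and none higher. No EBF gene of the 3 tested passed the test, and of 4 C/EBP genes Cebpd was lower and none higher. Of 7 tested bHLH genes Tcf21, Hand2 and Twist2 were higher and Tcf4, Tcf12 and Tcf3 lower, and of 5 genes for the EGR and WT1 word Wt1 and Egr2 were higher and Egr1 lower.

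Integrins tie a cell to its matrix and signal through the focal adhesion kinase FAK. The study had already reported integrin and FAK pathways as enriched at A-MSC-specific peaks of the same ATAC-seq data. Of 49 tested genes of this group, 16 were higher and 5 lower (16% and 13.9% of all tested genes), with a median log2 fold change of 0.23 against −0.0045 over all tested genes, and 12 of the 52 in the list had 17 members between them, where 9.72% of all tested genes had a member. Itga5, the fibronectin receptor subunit, had a member of 33 reads 10347 bp before its start site and was at 398.8, 440 and 430.1 TPM in A-MSCs, 97.87, 73.78 and 42.19 in fBM-MSCs, 285.5 and 235.6 in vBM-MSCs and 267.4, 295.9 and 258.6 in P-MSCs. A-MSCs were above every other library (log2 fold change 1.42, SE 0.19, edgeR adjusted p = 3.33e-04). Of the 12 genes 8 were higher and none lower, against 23.0% higher among all tested genes with a member. They included the integrin subunit gene Itga9 and the genes Fermt2 (kindlin 2), Lims1, Zyx and Tns1 of proteins that link integrins to actin, with 1 to 3 members each and log2 fold changes from 0.50 to 2.15. The others were Fyn and Itga11, whose calls were lost without A-MSC replicate 1 (edgeR adjusted p = 0.0522) and in 9 of 16 other settings. Itga11 was at 9.90 TPM in A-MSCs, under 25.3 in fBM-MSCs and 40.5 in vBM-MSCs, and above P-MSCs (0.13). The call of Zyx was lost without A-MSC replicate 2 (edgeR adjusted p = 0.0528). Ptk2b, Tln2, Actn1 and Rock2, with 1 member each, did not pass the test.

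Of 17 tested mesothelial genes 14 were higher and none lower (16% and 13.9% of all tested genes), with a median log2 fold change of 5.76, and 4 of the 26 on the list had members, 6 in all, where 9.72% of all tested genes had one. The list's summed level was 239 to 280.2 TPM in A-MSCs and 223.6 to 588.2 in vBM-MSCs, where Nkain4, which did not pass the test, reached 565 TPM. Wt1 held 3 of these. Lrrn4, a mesothelial surface gene with a member 3920 bp before its start that held GATA, TEAD and RUNX words, was at 2.37, 1.02 and 2.82 TPM in A-MSCs and 0 in all others, at least 134-fold, 99.8-fold and 161-fold above fBM-MSCs, vBM-MSCs and P-MSCs. Aldh1a2, a retinoic acid synthesis enzyme, and Slpi, a protease inhibitor, had 1 member each and were higher by 2.65 and 2.63 on the log2 scale. Msln, Upk3b and Krt8, defining markers that were also higher, had none.

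Of the 5 smooth muscle markers Des, which the skeletal muscle list shares, Tagln and Myh11 had 1 member each. Actg2, described above with the promoter members, was not on this list. Des, the intermediate filament desmin, had an intronic member 1748 bp into the gene and was at 163.3, 244.8 and 215.8 TPM in A-MSCs, 1.28, 1.68 and 0.7 in fBM-MSCs, 0.8 and 1.18 in vBM-MSCs and 5.33, 8.61 and 6.94 in P-MSCs. Its groups were far apart (log2 fold change 6.81, SE 0.22, edgeR adjusted p = 3.42e-08). Of 21 adipogenic genes 7 were higher and 3 lower, the latter close to the 13.9% of all tested genes (16% for higher), and 4 of the 28 on the list had a member. The 6 adipocyte markers summed to 1.24 to 24.89 TPM over the A-MSC libraries. Marrow libraries reached at most 4.24, so the ranges overlapped, and every lung library was at 0. Only 1 of the 6 was tested, and it did not pass. Of adipocyte markers, Lep was at 0 in every library and Adipoq at 2.69, 0 and 14.63 TPM in A-MSCs. Plin1 had 99 counts in A-MSCs and 0 in the other tissues. Retn, the hormone resistin, had a member of 22 reads 765 bp before its start and was at 2.14, 0.84 and 1.52 TPM in A-MSCs and 0 elsewhere, at least 9.47-fold, 7.04-fold and 11.3-fold above fBM-MSCs, vBM-MSCs and P-MSCs. Sox10, a neural crest factor, had an intronic member and was at 0 TPM in all 11 libraries.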

How the data were processed

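RNA-seq (Smart-seq2, 11 libraries) and ATAC-seq (FAST-ATAC, 4 peak lists) of cultured MSCs were analysed. Per the submitters' processing notes and the study's methods, the authors trimmed reads with Trim Galore and obtained the deposited expected counts, TPM and FPKM values per gene with RSEM on mm10. ATAC-seq reads were mapped by the authors with Bowtie, freed of duplicates with Picard and of blacklisted places with bedtools, shifted for Tn5, pooled over 3 replicates (6 samples per tissue) and given to MACS2. The deposited peak lists hold a fold enrichment ratio, −log10 p and q values and a browser score, which is the q value rescaled. Tool versions are not given in the sources used here. FPKM values and scores were not used. Smart-seq2 libraries do not keep the strand, so reads of overlapping genes cannot be told apart.

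Expected counts were rounded and fitted with edgeR 4.0.16 (R 4.3.3; TMM, quasi-likelihood test, 4 tissues, no block) for the 12509 genes that reached 1 CPM in 2 or more libraries. Libraries held 19569650 to 40517739 counts. Contrasts set A-MSCs against the mean of the others and against each, with Benjamini-Hochberg adjustment over all genes tested and a threshold of 0.05. Regions on chromosomes 1 to 19 were placed on curated RefSeq transcripts of GRCm38 (43783 transcripts, 24963 genes, of which 23173 matched the files) with Python 3.11.15, and sequences are from the same build. Reads at a summit are the fold divided by its step, less 1. The step was checked with a tolerance of 0.05 of a step. Shares have exact (Clopper-Pearson) 95% intervals.

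Named genes were the 15 with most members, the nearest genes of the 10 highest regions, the 10 highest and 5 lowest called genes among those with 3 or more members, list genes with 3 or more members, the 9 GATA genes and the 5 largest chains. Some items that met this rule are not reported here. Promoter genes, genes higher than in each other tissue, and list genes with 1 or 2 members were chosen after their values were seen. The members and gene lists were chosen with earlier results of these data known. Alternatives were other scaling, DESeq2 1.42.0, other filters, q limits, distances and windows, a replicate block, and each library left out.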

Additional observations from a re-analysis of the deposited data

How the results depend on the processing

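Depth limits the choice of regions: 77.8% of members held 14 to 19 reads, each list pools its replicates, and a place with up to 6 reads is not listed. With a −log10 q above 10 there were 1218 regions (promoter share 1.72%, GATA word share 27.3%, and 0% of the 3 tested genes with 3 or more regions lower), and above 20 there were about 1.7e+02 (1.18%, 29.6%), with no tested gene left at 3 regions. Counting only other lines with a −log10 q above 7 gave 8537 regions (promoters 5.21%, GATA 17.6%, lower genes 13.5%). With no other line within 500 bp the promoter share was 2.37%, and with promoters of 2 kb it was 6.42%. The GATA share was 13.6% within 50 bp, 40.2% within 250 bp and 48.5% with the 4 words. With start sites within 20 kb 60% (3 of 5) of genes were higher and 0% lower, and with 5 or more regions 0% (1 gene) were either.

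Leaving out 1 library gave 2486 to 4141 genes differing from the mean (3737 with all; 2486 without A-MSC replicate 3) and 417 to 740 differing from each tissue (638 with all; 424 without A-MSC replicate 3, 417 without vBM-MSC replicate 2). Higher shares ran from 30.6% to 44.4% and lower shares from 5.56% to 11.1%. Replicate numbers did not pair libraries (correlations of −0.0279 to 0.125 over 15 pairs; 5 of 11 libraries fell closest to their own number). With the replicate block 3665 and 628 genes differed, and the shares were 36.1% and 5.56%. Of 64 called genes, 53 kept their call in all 16 settings, 11 lost it in 1 or more and none reversed. Among uncalled genes, leaving out 1 library moved the log2 fold change across 0 for 6: from −0.45 to 0.12 for Mbd2, −0.29 to 0.27 for Zfpm2, −0.15 to 0.16 for Pparg, −0.30 to 0.043 for Tln2, −0.061 to 0.27 for Col4a1 and −0.022 to 0.12 for Msi2. The cause was not tested.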
